A study of Mus musculus with 6 samples.

Results

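The enzymes, transporters and receptors of acetylcholine signalling were followed in whole prostates of mice at 4 weeks of age. They were the acetylcholine-degrading enzymes Ache and Bche, the acetylcholine-synthesising enzyme Chat, the choline transporter Slc5a7 and the muscarinic receptors Chrm1, Chrm2 and Chrm3. Ufsp1, the chromosomal neighbour of Ache, was added to them. Each of these 8 genes, out of 19938 genes followed on the array, was taken through the probe set that the platform annotation assigns to that gene symbol and to no other. Where a gene has several probe sets, the rule keeps the one with the highest mean over the 6 arrays, and each of the 8 genes had 1. The genes were chosen with the difference between the genotypes on these arrays already known, so that difference is described here and not tested.

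The study compared 3 mice carrying an AR3 transgene with 3 wild-type littermates, both at 4 weeks, with 1 array per mouse. AR3 is a splice variant of the androgen receptor that lacks the ligand-binding domain. The sources used here do not give the promoter or cell type that drives the transgene, the number of founder lines or the strain. Values are the deposited intensities on a linear scale. Changes are differences of log2(intensity + 16), transgenic minus wild-type, with the standard error (SE) of a linear model fitted to all 28944 probe sets other than controls (limma). The added constant makes the change of a dim gene look smaller.

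Acetylcholine is made from choline and acetyl-CoA by choline acetyltransferase and acts on muscarinic receptors, which couple to G proteins, and on nicotinic receptors, which are ion channels. Acetylcholinesterase ends the signal by hydrolysing acetylcholine, and butyrylcholinesterase hydrolyses it and other choline esters. In the prostate, cholinergic nerves drive fluid secretion by the epithelium, and muscarinic receptors are found on epithelium and on stromal smooth muscle. Ufsp1 encodes a cysteine protease that acts on UFM1, a ubiquitin-like protein.

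The sequences just before the starts of Ache and Ufsp1 are shown because those genes hold the difference between the genotypes. Both lie on the plus strand of chromosome 5, and in the RefSeq promoter table of GRCm38.p6 their starts are 6415 bases apart. The stretches are the 200 bases before each start, at chr5:137288054-137288253 for Ache and chr5:137294469-137294668 for Ufsp1, and capitals mark the GC box GGGCGG or its reverse complement CCGCCC.
Ache: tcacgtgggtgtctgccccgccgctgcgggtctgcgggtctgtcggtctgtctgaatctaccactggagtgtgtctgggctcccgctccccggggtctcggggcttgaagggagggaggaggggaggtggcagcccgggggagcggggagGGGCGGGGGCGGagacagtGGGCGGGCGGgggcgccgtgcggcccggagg
Ufsp1: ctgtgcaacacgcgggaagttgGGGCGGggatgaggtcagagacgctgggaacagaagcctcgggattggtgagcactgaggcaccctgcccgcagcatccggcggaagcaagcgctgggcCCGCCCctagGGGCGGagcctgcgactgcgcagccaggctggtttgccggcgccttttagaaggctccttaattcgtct
The Ache stretch held 4 GC boxes, the last of which shares letters with the box before it, and had a G and C content of 75.0%. The Ufsp1 stretch held 3 and had 65.5%. The table holds promoter windows of 300 bases for 7 of the 8 genes, from 250 bases before to 50 after the start. In these windows the G and C content was 74% for Ache and 63.3% for Ufsp1, beside a median of 52.7% over all windows. At least 1 GC box lay in the windows of 4 genes, namely Ache, Ufsp1, Bche and Chrm2, and in 35.7% of all 32851 windows. The core of the androgen response element, searched as AGAACA or TGTTCT on either strand, was in none of the 7 windows and in 19.0% of all windows. These are matches of letters within short windows, and binding of the transgene product was not measured.

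Ache was far higher in transgenic prostates. Its intensity was 32.3, 32.9 and 34.3 in wild-type mice 1, 2 and 3, and 338, 269 and 324 in transgenic mice 1, 2 and 3. The lowest transgenic value lay far above the highest wild-type value, and the wild-type mice were nearly equal. The means were 33.2 ± 1.06 and 310.3 ± 36.2 (SD, n = 3 each), a ratio of mean intensities of 9.36 and a log2 change of 2.72 ± 0.10 (SE). Only 14 of the 19938 genes had a larger log2 change, which places Ache at rank 15. Without detection calls, background was gauged from 1035 olfactory receptor probe sets, whose 95th percentile lay between 66.9 and 91.9 on the 6 arrays. Ache lay below that percentile in all 3 wild-type mice and above it in all 3 transgenic mice, so the true ratio may differ from that of the intensities. In whole tissue, a change in the number of expressing cells and a change of RNA per cell cannot be told apart.

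Ufsp1 showed the same separation of the genotypes. Its intensity was 93.1, 105.2 and 92.4 in wild-type mice 1, 2 and 3, and 455, 340 and 427 in transgenic mice 1, 2 and 3. The groups did not overlap, and every value lay above the background percentile of its own array. The margin was narrow in wild-type mouse 3, at 92.4 against 91.9, so the true ratio may differ from that of the intensities. The means were 96.9 ± 7.20 and 407 ± 59.9 (SD, n = 3 each), a ratio of 4.204 and a log2 change of 1.90 ± 0.12 (SE), at rank 38 of all genes. Among the transgenic mice, mouse 1 was highest and mouse 2 lowest for Ache and for Ufsp1 alike. With 3 mice such a shared order carries little information, and it was not tested. By the threshold of the fit, an adjusted p of 0.05, these 2 of the 8 genes were called, both higher, beside 1.47% of all probe sets and 1.64% of all genes (1.18% higher and 0.456% lower). Nothing is read from that count, since the genes were chosen on this contrast.

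**Figure D1:**
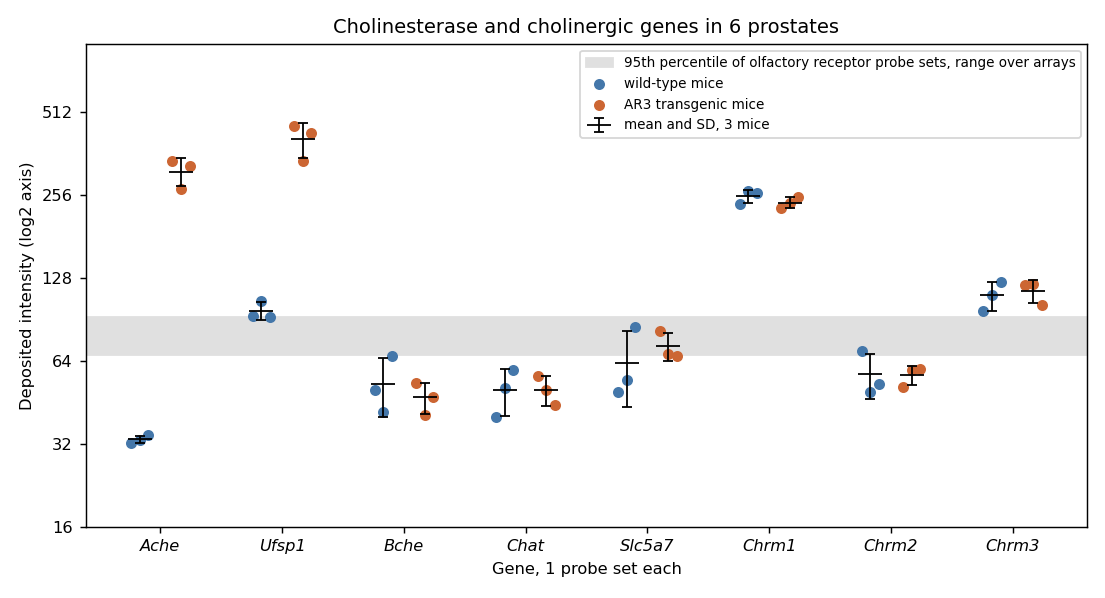
Deposited intensity of each gene (log2 axis) in 3 wild-type and 3 AR3 transgenic mice, with mean and SD; the grey band is the 95th percentile of olfactory receptor probe sets, 66.9 to 91.9 over the arrays. Ache and Ufsp1 are separated by genotype, while the genotypes overlap for the other 6 genes.

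The second cholinesterase, Bche, did not show the separation seen in Ache. Its intensity was 49.98, 41.8 and 66.8 in wild-type and 53.2, 40.8 and 47.5 in transgenic mice 1, 2 and 3. The genotypes overlapped and every value lay below the background percentile of its array. The log2 change was −0.11 ± 0.14 (SE), with a 95% interval from −0.44 to 0.22.

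The genes that make acetylcholine and supply its choline were dim as well. Chat lay at 40.1, 50.8 and 59.4 in wild-type and at 56.4, 50.03 and 44.1 in transgenic mice 1, 2 and 3. Its means were 50.1 ± 9.69 and 50.2 ± 6.16 (SD, n = 3 each), and the interval of its log2 change ran from −0.28 to 0.30. Slc5a7, the high-affinity choline transporter of cholinergic terminals, lay at 49.2, 54.4 and 84.9 in wild-type and at 81.9, 67.9 and 66.7 in transgenic mice 1, 2 and 3. Wild-type mouse 3 was the brightest of the 6, so the genotypes overlapped, and the log2 change was 0.18 ± 0.17 (SE) with an interval from −0.20 to 0.57. Both genes lay below the background percentile on all 6 arrays, so changes in their transcripts may not be visible at this signal.

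The muscarinic receptors held similar values in both genotypes. Chrm1 had intensities of 236, 263 and 258 in wild-type and 228, 239.5 and 251 in transgenic mice 1, 2 and 3, all above the background percentile. Its log2 change was −0.07 ± 0.08 (SE), with an interval from −0.26 to 0.11. Chrm3, the receptor that drives secretion and smooth muscle contraction in many organs, lay at 96.8, 111 and 123.5 in wild-type and at 120.2, 122 and 102 in transgenic mice 1, 2 and 3. All 6 values lay above the background percentile and the genotypes overlapped, with a log2 change of 0.05 ± 0.11 (SE) and an interval from −0.20 to 0.30. Chrm2, a receptor that inhibits adenylyl cyclase, lay at 69.2, 49.2 and 52.9 in wild-type and at 51.4, 59.2 and 59.7 in transgenic mice 1, 2 and 3. It was above the background percentile in wild-type mouse 1 alone, and its interval ran from −0.27 to 0.27. For Bche, Chat, Slc5a7 and Chrm2, whose signal lay at background on most or all arrays, the intervals describe the intensities and set no limit on a change of the transcripts.

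The genes next to Ache on chromosome 5 were then followed in the order of the RefSeq gene table. Of the 4 nearest annotated genes on each side, Ufsp1 and Srrt are measured here. Srrt, an RNA-processing factor that follows Ufsp1, lay at 620, 604 and 598 in wild-type and at 637, 591 and 651 in transgenic mice 1, 2 and 3. The groups overlapped, with a log2 change of 0.04 ± 0.07 (SE; adjusted p 0.87, limma). Extending to the 10 nearest measured genes on each side, a range chosen after the values were seen, gave 19 genes besides Ache and Ufsp1, of which 1 was called higher and none lower, beside 1.18% and 0.456% of all genes. The call was Muc3, an intestinal-type mucin, at 21.7, 31.7 and 23.2 in wild-type and 62.9, 51.2 and 49.1 in transgenic mice 1, 2 and 3. Its log2 change was 0.76 ± 0.12 (SE; adjusted p 0.022, limma), both means lay below the lowest background percentile of 66.9, and the call held when wild-type replicate 2 was left out but not when any other single array was, with an adjusted p up to 0.0976. Beyond Srrt, the zyxin-family gene Trip6 (0.28 ± 0.09), the solute carrier Slc12a9 (0.22 ± 0.08) and the ephrin receptor Ephb4 (0.27 ± 0.10) had every transgenic value above every wild-type value but did not pass the threshold (adjusted p 0.278, 0.313 and 0.349, limma). In all, 6 of the 19 genes had all transgenic values above all wild-type values and 0 below, beside 10.5% and 8.61% of all genes.

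**Figure D2:**
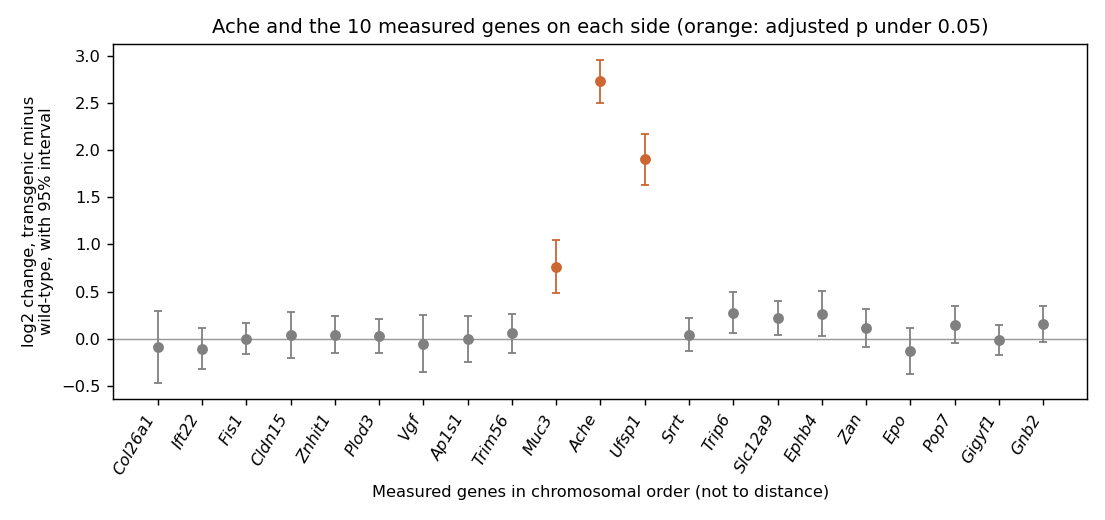
Log2 change with its 95% interval for Ache and the 10 measured genes on each side in chromosomal order, with genes past an adjusted p of 0.05 in orange. Ache (2.72) and Ufsp1 (1.90) stand above their neighbours, Srrt lies at 0.04, and Muc3 at 0.76.

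Other genes of acetylcholine handling, of its receptors and of UFM1 conjugation were read from 8 lists, of whose 92 symbols 83 were measured. In the limma fit 2 were higher, 1 was lower and 80 did not pass the threshold. That is 3 of 83 genes beside 1.64% of all genes, and the median log2 change was 0.06 against 0.01 for all genes. All transgenic values lay above all wild-type values in 13 of the 83 and below them in 9, beside 10.5% and 8.61% of all genes.

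Among 9 measured genes of choline supply and transport, 1 was lower and none higher. Chka, choline kinase alpha, which commits choline to phosphatidylcholine synthesis, fell from 769, 820 and 1023 in wild-type mice to 559, 511 and 472 in transgenic mice 1, 2 and 3. The groups did not overlap, with a log2 change of −0.74 ± 0.12 (SE; adjusted p 0.031, limma). The call was lost without wild-type replicate 2 (0.105) or transgenic replicates 1 (0.0704), 2 (0.149) or 3 (0.163), and with an added constant of 1 (0.0647). The choline transporter-like genes Slc44a4 (0.37 ± 0.12, adjusted p 0.261, limma) and Slc44a2 (0.29 ± 0.10, adjusted p 0.315, limma) had higher values in every transgenic mouse than in any wild-type mouse and did not pass. Slc44a4 did with array weights (0.0378). Slc18a3, the vesicular acetylcholine transporter, had mean intensities of 150.3 ± 38.0 in wild-type mice and 155.8 ± 6.17 in transgenic mice (SD, n = 3 each).

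The 2 genes that anchor acetylcholinesterase outside the cell were not called. Prima1, its membrane anchor, lay at 99.1 ± 18.2 and 108 ± 0.576 (SD, n = 3 each), and its log2 change was 0.11 ± 0.11 (SE, adjusted p 0.745, limma). Colq, its collagen tail at the neuromuscular junction, lay at 57.5 ± 8.66 and 53.7 ± 6.41 and below the background scale of 66.9 in both genotypes (change −0.07, adjusted p 0.85, limma). Of 18 measured relatives that share the esterase fold, the carboxylesterase Ces3a was higher and none was lower. Ces3a lay at 43.1, 42.2 and 44.2 in wild-type and 64.5, 58.9 and 63.5 in transgenic mice 1, 2 and 3, again below the background scale. Its log2 change was 0.40 ± 0.07 (SE; adjusted p 0.044, limma), and the call held in 3 of 14 alternative settings. It was lost without any 1 of the 6 arrays (up to 0.238), with a constant of 64 (0.0699), quantile normalization (0.0613), median centring (0.0997), and trend and robust variances (0.0919). Ces1e, another carboxylesterase at background, lay at 29.2, 39.3 and 47.2 in wild-type and 48.8, 56.5 and 56.7 in transgenic mice 1, 2 and 3 (log2 change 0.37 ± 0.13, adjusted p 0.302, limma).

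None of the 16 nicotinic subunits was called, and their log2 changes lay between −0.15 and 0.19. In 11 of them both means were below the background scale. The subunits with the smallest p were Chrna4 (0.17 ± 0.10, adjusted p 0.569) and Chrnb4 (0.19 ± 0.12, adjusted p 0.572) in the limma fit. None of 12 measured accessory genes of nicotinic receptors was called either. Lypd6, a membrane-anchored protein that modulates nicotinic receptors, lay at 69.7, 78.4 and 86.9 in wild-type and 105, 121 and 114 in transgenic mice 1, 2 and 3. The groups did not overlap, with a log2 change of 0.46 ± 0.09 (SE) and a limma adjusted p of 0.0777, which fell below the threshold in 4 of 15 alternative settings. Lynx1, a toxin-like modulator of nicotinic receptors, had a log2 difference of 0.23 ± 0.07 (adjusted p 0.25, limma). Its means of 67.8 in wild-type and 82.1 in transgenic mice lay within the background range of 66.9 to 91.9. The wild-type mean of Lypd6, 78.3, lay within it too. The muscarinic receptors Chrm4 and Chrm5 lay below the background scale in both genotypes, with log2 changes of 0.04 and −0.08 (adjusted p 0.886 and 0.712, limma).

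Of 18 measured genes that carry muscarinic signals, 1 was higher and none lower. Every transgenic value lay above every wild-type value in 7 of the 18 and below in 1, beside 10.5% and 8.61% of all genes. Their median log2 change was 0.14 against 0.01 for all genes. Rgs2, which shortens the signalling of Gq proteins, rose from 1108, 1445 and 1426 in wild-type to 2144, 2033 and 2111 in transgenic mice 1, 2 and 3. The groups did not overlap, with a log2 change of 0.66 ± 0.11 (SE; adjusted p 0.035, limma). The call was lost without wild-type replicate 2 (0.0738) or transgenic replicates 1 (0.138), 2 (0.138) or 3 (0.168), and with an added constant of 1 (0.0713). Rgs2 also acts on signals of many other receptors. The Gq subunit Gnaq had a log2 change of 0.03 ± 0.11, and Gnai1, a subunit of inhibitory G proteins, one of −0.24 ± 0.08 (adjusted p 0.949 and 0.29, limma).

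UFM1 conjugation, the pathway of the Ufsp1 product, showed no call among 6 measured genes, with a median log2 change of −0.13. Ufsp2, the related UFM1 protease, had means of 975 ± 23.3 in wild-type mice and 845 ± 63.2 in transgenic mice (SD, n = 3 each), a log2 change of −0.20 ± 0.08 (SE; adjusted p 0.372, limma). Ufm1 itself had a log2 difference of −0.31 ± 0.08 (adjusted p 0.179, limma) and the conjugating enzyme Ufc1 one of −0.23 ± 0.07 (adjusted p 0.263, limma). In these 3 of the 6 genes every transgenic value lay below every wild-type value, as in 8.61% of all genes. Ufm1 has 2 probe sets, and its change was −0.23 when they were averaged. It passed the threshold in 1 of 15 alternative settings, with trend and robust variances (adjusted p 0.0323, limma).

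**Figure D3:**
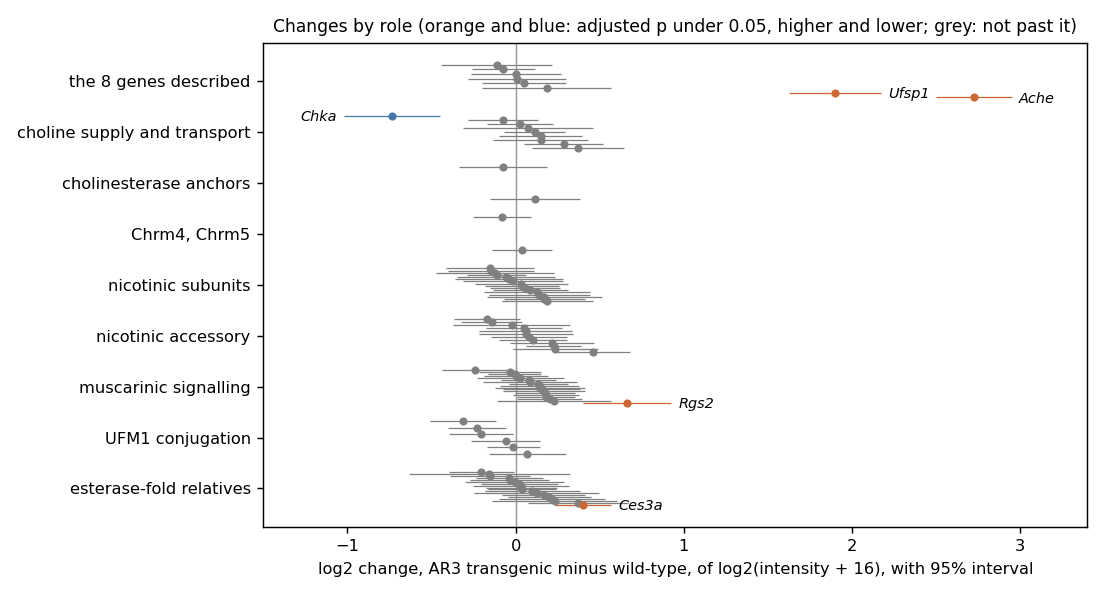
Log2 change with its 95% interval for the 8 genes and for 83 other genes grouped by role, with genes past an adjusted p of 0.05 in orange (higher) or blue (lower). Ache and Ufsp1 lie far to the right of every other gene shown, and Chka, Rgs2 and Ces3a are the calls among the other groups.

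Acetylcholinesterase is also made by nerve, skeletal muscle and red blood cells, so markers of these were read beside it. Among 14 nerve markers, Uchl1, a ubiquitin hydrolase abundant in neurons, was higher and none was lower. Uchl1 went from 81.3, 101.7 and 78.2 in wild-type to 323, 337 and 316.5 in transgenic mice 1, 2 and 3, a log2 change of 1.73 ± 0.10 (SE; adjusted p 0.000112, limma). The summed intensity of the 14 markers ran from 887 to 1114 in wild-type and from 1247 to 1373 in transgenic mice. Without Uchl1 the sums overlapped, from 805 to 1036 in wild-type and from 931 to 1036 in transgenic mice. In 2 of the 14, Uchl1 and Phox2a (0.22), every transgenic value lay above every wild-type value. In 1, Elavl4 (−0.32), every transgenic value lay below, beside 10.5% and 8.61% of all genes. Neither Phox2a nor Elavl4 was called. The neuronal genes Tubb3, Snap25, Stmn2, Elavl4, Dbh and Vip lay at or below the background scale on average. Prph, Gap43, Th and Hand2 averaged within the background range of 66.9 to 91.9. Such genes can hide changes, so the overlap of the sums without Uchl1 sets no limit on a change of nerve content. Of 10 skeletal muscle markers none was called, and their sum, mostly the actin Acta1, ran from 2409 to 3100 in wild-type and from 2451 to 2960 in transgenic mice. In 3 of the 10, the myosins Myh1 (−0.23) and Myh4 (−0.29) and the troponin Tnnt3 (−0.29), every transgenic value lay below every wild-type value, as in 8.61% of all genes. The means of Myh1 (69.8 and 57.5) and Myh4 (77.5 and 60.4) lay within the background range of 66.9 to 91.9 in wild-type mice. In transgenic mice they lay below that range. Over all arrays Myh2 and Mylpf averaged within that range and Casq1 below it, and such genes can hide changes. Of 10 listed red cell markers 3 were measured, and none was called. They summed to between 193 and 211 in wild-type and between 187 and 207 in transgenic mice. In 1, Alas2 (−0.12), every transgenic value lay below every wild-type value, as in 8.61% of all genes. Glia (3 measured), smooth muscle (8), lymphocyte (5) and neuroendocrine (5) markers showed no call, and their sums overlapped between genotypes. In 1 of the 5 lymphocyte markers, Cd3g (−0.18), every transgenic value lay below every wild-type value. On average, 4 of the 5 lymphocyte and 3 of the 5 neuroendocrine markers lay at or below the background scale. So did S100b of the glia list and Epb42 of the red cell list, and such genes can hide changes. The 6 measured prostate markers were bright in both genotypes, Pbsn with means of 9343 ± 366 in wild-type mice and 8078 ± 216 in transgenic mice (SD, n = 3 each), and none was called. Their summed intensity ran from 27813 to 30100 in wild-type and from 22760 to 25691 in transgenic mice, and most of it came from the secretory genes Pbsn (log2 change −0.21) and Msmb (−0.52). Of the other 4, Krt8 (0.14) and Foxa1 (0.04) had positive changes and Hoxb13 (−0.11) and Krt18 (−0.02) negative ones. In 3 of the 6, Pbsn, Msmb and Hoxb13, every transgenic value lay below every wild-type value, as in 8.61% of all genes. Of 5 seminal vesicle markers none was called, and their median log2 change was 1.45. Their sum ran from 161 to 4393 in wild-type and from 1343 to 8729 in transgenic mice. Svs4 (1.45) and Svs5 (1.67) had positive changes and Svs2 (−0.35) and Svs6 (−0.29) negative ones. Svs2, Svs4 and Svs5 lay at 1769, 622 and 1020 in wild-type mouse 1. In transgenic mouse 2 they lay at 24.6, 60.3 and 15.5, and most of its sum of 1343 was Pate4. Pate4 lay at 942, 25.2 and 36.7 in wild-type and at 1782, 1203 and 3026 in transgenic mice 1, 2 and 3. The genotypes did not overlap for Pate4, whose log2 change was 3.88 ± 1.09 (SE; adjusted p 0.201, limma). It passed the threshold without wild-type replicate 1 (5.33, adjusted p 6.12e-04, limma) and with array weights (5.04, adjusted p 0.0093, limma). The part of any of these tissues in the Ache values was not tested.

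The genes whose values over the 6 arrays ran closest to Ache were found by the root mean square distance between log2 profiles, each centred on its own mean, among 11213 genes with a mean intensity of at least 100 over all arrays. The nearest was 2010106E10Rik, at a distance of 0.088 on the log2 scale, which rose from a mean of 23.0 to 229.5. Next came the C-type lectin Chodl (0.17), the amino acid transporter Slc38a4 (0.17), the L-type calcium channel subunit Cacna1d (0.18) and the protease inhibitor Mug2 (0.18), whose near-identical paralogs may share signal. The wild-type means of all 5 lay below the background scale, as that of Ache did. They passed the filter on mean intensity only through their transgenic values, and the distances rest in part on signal at background. Ufsp1 stood at place 19 by this measure, at 0.42. The profiles were not scaled, so the size of a change enters the distance. The log2 change of Ufsp1 (1.90) was smaller than that of Ache (2.72). Among the transgenic mice, 2010106E10Rik and Slc38a4, like Ache and Ufsp1, were highest in mouse 1 and lowest in mouse 2, whereas Chodl was lowest in mouse 3, and Cacna1d and Mug2 were highest in mouse 3. The measure uses the same arrays as the choice of genes and is a description, as is the order of the mice.

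**Figure D4:**
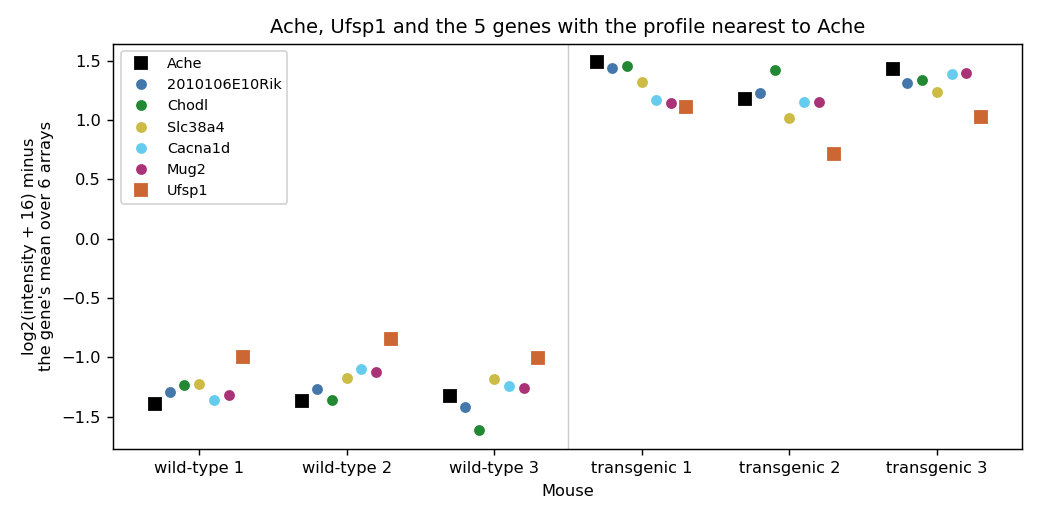
Centred log2(intensity + 16) of Ache, Ufsp1 and the 5 genes nearest to Ache, by mouse. All 7 genes lie below their mean in the 3 wild-type mice and above it in the 3 transgenic mice, with Ufsp1 spanning the narrowest range.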

How the data were processed

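Total RNA of 6 prostates was labelled for a whole-transcript Affymetrix array, per the labels' protocols. The table deposited by the authors holds 1 linear intensity per probe set and array; the sources used here do not name the summarisation, the normalization or the software, and no further normalization was applied. Median intensity per array was 94.5 to 111, and the number of arrays limits the precision.

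Of 35512 probe sets, 6568 were left out as controls because their identifiers precede those of genes on this platform. Gene symbols came from the platform annotation (21789 tested probe sets with 1 symbol, 1621 with several, 5534 without), updated through the RefSeq gene table of GRCm38.p6, which held 21698 of the 21789.

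Log2(intensity + 16) was compared between the genotypes in limma (lmFit and eBayes; version 3.58.1, under R 4.3.3), two-sided, with Benjamini-Hochberg adjustment over 28944 probe sets and a threshold of 0.05; intervals are moderated 95% intervals. At that threshold 425 probe sets (1.47%) were called, 71.8% of them higher, or 54.3% of 578 after median centring. With 3 arrays against 3, an exact permutation test cannot go below 0.10, so none was used.

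The genes described, the lists and the motifs were chosen with earlier results of these data known. Named besides the 8 genes are list genes past the threshold, the 2 smallest p of each list, neighbours of Ache, and the 5 nearest profiles; Muc3, Trip6, Slc12a9, Ephb4, Slc44a2, Slc18a3, Gnaq, Ufsp2 and the marker genes were named after their values were seen. Protein sequences were not analysed here. Alternatives were constants of 1 and 64, median centring, quantile normalization, omission of the dimmest 40% of probe sets, trend and robust variances, array weights, averaged probe sets, the mouse number as a block, and each array left out.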

Additional observations from a re-analysis of the deposited data

How the results depend on the processing

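Ache and Ufsp1 were the 2 genes called among the 8 under each alternative run on all 8, and among the 4 left (Ache, Ufsp1, Chrm1 and Chrm3) when the dimmest probe sets were omitted. The log2 change of Ache ran from 1.94 (constant of 64) to 3.18 (constant of 1) and that of Ufsp1 from 1.54 to 2.05. The other genes moved by less than 1 residual SD wherever they were fitted. Of 3 calls among the 83 pathway genes, 1 was left with a constant of 1, and 5 were made with array weights. Leaving out 1 array at a time gave between 0 and 2 of them, with 0 when wild-type replicate 2 or a transgenic replicate was the one left out. Over all probe sets the 425 calls became 678 with trend and robust variances and 1202 with array weights, and ran from 234 to 519 without single arrays. The causes were not tested. In the fit with a replicate block for the mouse number, 250 probe sets and 0 pathway genes were called. The numbers were not taken as a pairing of the mice. Deviations of same-numbered mice correlated at −0.04, 0.05 and −0.16. The own number gave the best correlation for 0 of 3 transgenic and 1 of 3 wild-type mice. With 3 mice per group these values cannot exclude a pairing. Genes with both means below the background scale can hide changes.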
